A study of Mus musculus with 15 samples.

Results

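The genes described here encode the 5 complexes of the mitochondrial respiratory chain: complex I (NADH dehydrogenase), complex II (succinate dehydrogenase), complex III (cytochrome bc1), complex IV (cytochrome c oxidase) and complex V (ATP synthase). They were picked by symbol from a table of 44827 mouse genes, as those starting with Nduf, Uqcr, Sdh, Cox, Atp5, mt-Nd, mt-Co, mt-Atp or mt-Cyt that name chain genes, with pseudogene symbols left out. The choice gave 109 genes, 96 in the nucleus and 13 in mitochondrial DNA. Of these, 99 had at least 1 CPM (counts scaled to the library size) in at least 3 libraries and were tested, 91 nuclear and 8 mitochondrial, among 13927 genes tested in all.

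The RNA came from C57BL/6 bone marrow sorted as LSK, cells without lineage markers that carry Sca1 and cKit and hold the blood stem and early progenitor cells. Each of the 5 groups had 3 stranded mRNA libraries. The leukemic double mutant is Tet2-/- Nras(G12D) with leukemia, the double mutant is Tet2-/- Nras(G12D) without leukemia, and the single mutants are Nras(G12D) and Tet2-/-. The last group is WT. The mutations were conditional and confined to blood-forming tissue; the Cre driver is not given in the sources used here. The series gives an age of 6 months for the animals of its methylation work. The leukemic libraries also carry the label BMT, whose meaning was not established; leukemia and whatever this label marks cannot be told apart. Separate animals are not stated for the 3 libraries of each group, so a p-value is set against library spread alone. Y-linked genes (Ddx3y, Kdm5d, Eif2s3y and Uty) summed to 308 to 455 CPM in 1 library each of the leukemic double mutant, double mutant and Nras(G12D) groups and to 490.0 and 700 CPM in Tet2-/- libraries 2 and 1. They were at most 1.11 CPM in all others, WT included, so each mutant group held RNA of more than 1 animal and the sexes were unevenly spread.

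Complexes I to IV pass electrons to oxygen and, except for complex II, pump protons across the inner membrane; complex V uses that gradient to make ATP. Mitochondrial DNA encodes core subunits of complexes I, III, IV and V, while complex II and all remaining subunits come from the nucleus, so the chain needs transcripts of both genomes. Complex II also works in the citric acid cycle. Blood stem cells are known for relying little on respiration, and Tet2, an enzyme that oxidises methylated cytosine in DNA, uses a product of that cycle as its cofactor.

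Of the 13 mitochondrial genes, 5 could not be followed in this table. mt-Atp8 had 0 counts in all 15 libraries, mt-Nd4l had 0 to 1, mt-Co2 and mt-Atp6 had 0 to 3, and mt-Co3 had 0 to 5. Annotated nuclear copies on chromosome 1 (GRCm38, between 24611535 and 24616197) matched mt-Co2, mt-Atp6, mt-Co3 and mt-Nd4l with 100% identity over at least 98.99% of each gene. The copies themselves (Gm28661, Gm10925, Gm28437 and Gm10222) held 0 to 8 counts in any library. mt-Nd3, with 62 to 176 counts, differed from its copy Gm28438 by 1 base in 345. The first 60 bases of mt-Nd3 and of its copy show that base in capitals (T3C, counted from 1 at the first base of the gene, mt-Nd3 first), and those of mt-Nd4l stand for a gene with no such base.
mt-Nd3: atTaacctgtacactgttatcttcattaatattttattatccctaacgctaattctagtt
Gm28438: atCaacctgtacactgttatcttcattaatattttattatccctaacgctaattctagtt
mt-Nd4l: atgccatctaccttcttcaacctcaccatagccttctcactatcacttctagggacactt
mt-Nd4 shared its first 876 of 1378 bases with the copy Gm28439 and mt-Co1 shared 483 of 1545 bases with Gm29216, and the lowest counts in a library were 10050 for mt-Nd4 and 66884 for mt-Co1. No annotated transcript matched mt-Atp8 at 99% identity. How reads with several matches were counted is not given in the sources used here. Levels of these 5 genes are therefore not reported as expression, and sums over the mitochondrial genes rest on mt-Co1, mt-Cytb, mt-Nd1, mt-Nd2, mt-Nd4, mt-Nd5 and mt-Nd6, with little from mt-Nd3.

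Total counts ran from 22733189 to 43562909 per library. Where a gene had no count, the upper limit of 3 counts was at most 0.127 CPM (counting error only). Tet2 was counted at 32.3 to 76.5 CPM in leukemic double mutant, 47.9 to 62.6 in double mutant, 35.9 to 59.8 in Tet2-/- and 50.7 to 65.2 in WT libraries; gene totals do not show whether an exon is missing, so they do not check the labels. The 9 LSK markers summed to 686 to 2812 CPM in leukemic double mutant libraries, against 2835 to 3505 in double mutant and 3652 to 4179 in WT libraries. Procr and Hlf were lowest in leukemic libraries 2 and 3. Over the double mutant 4 of the 9 were called lower in limma, where 15.2% of all genes tested were, and 2 had changes above 0. Slamf1 was at 22.7, 7.38 and 19.5 CPM in leukemic double mutant libraries, against 6.64, 5.25 and 4.88 in double mutant libraries. Ly6a was at 114, 64.7 and 189 CPM, against 94.3, 76.4 and 72.4. The 8 erythroid markers summed to 172 to 1962 CPM in leukemic double mutant, 49.1 to 72.2 in double mutant and 57.5 to 79.4 in WT libraries, and the 8 mitosis genes summed to 1839 to 3541, 1392 to 2012 and 1802 to 2033 CPM in the same 3 groups. The 6 dendritic cell markers summed to 410.5 to 634 CPM in leukemic double mutant, 2138 to 3576 in double mutant and 433 to 626 in WT libraries. All 6 were called lower in leukemic double mutant over double mutant (limma, median -2.52), and 4 of 6 were called higher in double mutant over WT. Of all genes tested, 15.2% were called lower in the first comparison and 0.488% higher in the second. Over the double mutant, all 8 erythroid markers and 2 of 8 mitosis genes were called higher, where 9.04% of all genes were. No gene of these 4 lists was at 0 in a whole group. The part of these differences in the results below was not tested; in bulk RNA, a change in the mix of cells and a change per cell cannot be told apart.

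Per kilobase of transcript, the mitochondrial genes mt-Co1 and mt-Cytb held the first 2 places among the genes that could be measured in all 5 groups. In leukemic double mutant libraries mt-Co1 averaged 2086 ± 273 CPM per kilobase and mt-Cytb 1859 ± 72.8 (SD, n = 3), and in WT libraries mt-Co1 averaged 1998 ± 359 and mt-Cytb 2089 ± 418 (SD, n = 3), so the order of these 2 genes did not differ beyond their spread. Next came Atp5b, the catalytic beta subunit of ATP synthase, with 1672 ± 386 CPM per kilobase, ahead of mt-Nd1 with 1424 ± 165 in leukemic double mutant libraries. In WT libraries mt-Nd1 had 1065 ± 229 and Atp5b 838 ± 302 CPM per kilobase, again within the spread. Atp5a1, the alpha subunit beside it in the enzyme's head, had 836 ± 76.0 CPM per kilobase in leukemic double mutant and 593 ± 7.8 in WT libraries.

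The nuclear genes took the largest share of the RNA in the leukemic double mutant, while the mitochondrial genes did not follow. The 96 nuclear genes made up 1.56, 1.82 and 1.73% of all counts in leukemic double mutant libraries, 1.29, 1.14 and 1.23% in double mutant, 1.62, 1.44 and 1.42% in Nras(G12D), 1.14, 1.26 and 1.12% in Tet2-/- and 1.35, 1.47 and 1.31% in WT libraries. The leukemic libraries lay above those of every other group but for Nras(G12D) library 1. The 13 mitochondrial genes made up 0.768, 0.724 and 0.724% of counts in leukemic double mutant, 1.01, 0.752 and 1.28% in double mutant, 1.46, 0.799 and 1.14% in Nras(G12D), 0.856, 0.795 and 1.13% in Tet2-/- and 0.976, 0.999 and 0.688% in WT libraries. Here the groups overlapped, with leukemic libraries in a narrow band at the low end. The ratio of nuclear to mitochondrial counts was 2.03, 2.51 and 2.38 in leukemic double mutant libraries, and between 0.956 (double mutant 3) and 1.91 (WT 3) in the other 12 libraries. Every leukemic ratio was above every other one. The ratio does not depend on how libraries are scaled; no p is given for it, since the genes were chosen with results of these data known.

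**Figure D1:**
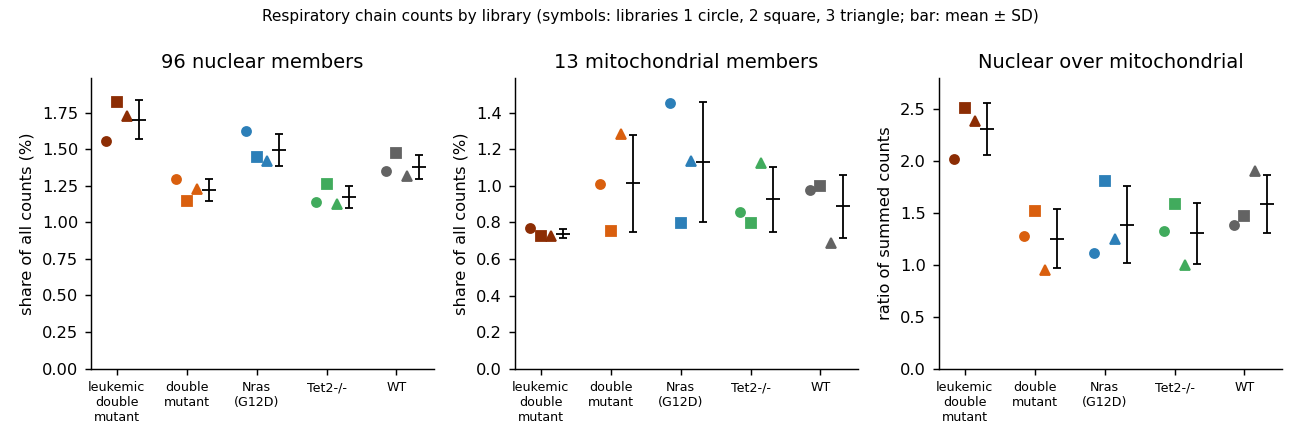
Share of all counts (%) taken by the 96 nuclear and the 13 mitochondrial genes, and the ratio of the 2 sums, in each of the 15 libraries; symbols are libraries 1 to 3 and bars the mean ± SD (n = 3). Leukemic double mutant libraries have ratios of 2.03 to 2.51, above the 12 other libraries.

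Against the double mutant, 24 of the 91 nuclear genes tested were higher in the leukemic double mutant and 0 were lower (limma, Benjamini-Hochberg adjusted p below 0.05), while 9.04% of all genes tested were called higher and 15.2% lower. The median change of the nuclear genes was 0.54 on the log2 scale, with 84 above 0, and that of all genes tested was -0.10. None of the 8 mitochondrial genes was called, 0 also had an unadjusted p below 0.05 (38.7% of all genes did) and 0 were called by voom with sample quality weights; their median change was -0.25, with 7 below 0. All 3 leukemic libraries lay above all 3 double mutant libraries for 56 nuclear genes and below them for 2, against 19.7% and 23.4% of all genes tested; no mitochondrial gene separated in this way. Scaling by total counts moved the median of all genes to -0.34, that of the nuclear genes to 0.31 and that of the mitochondrial genes to -0.48, and 12 nuclear genes were then called higher and 0 lower. Relative to the median of all genes, the nuclear median was 0.64, or 0.43 with quantile normalization, and the mitochondrial median was -0.14, or -0.58 with quantile normalization, under which 2 mitochondrial genes were called lower. Leaving out leukemic library 2 left 8 calls, library 3 left 11, double mutant library 2 left 9 and double mutant library 3 left 10, while 43 were called without leukemic library 1, the leukemic library with the highest LSK marker sum. The shares of all genes called in these fits are not given here.

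**Figure D2:**
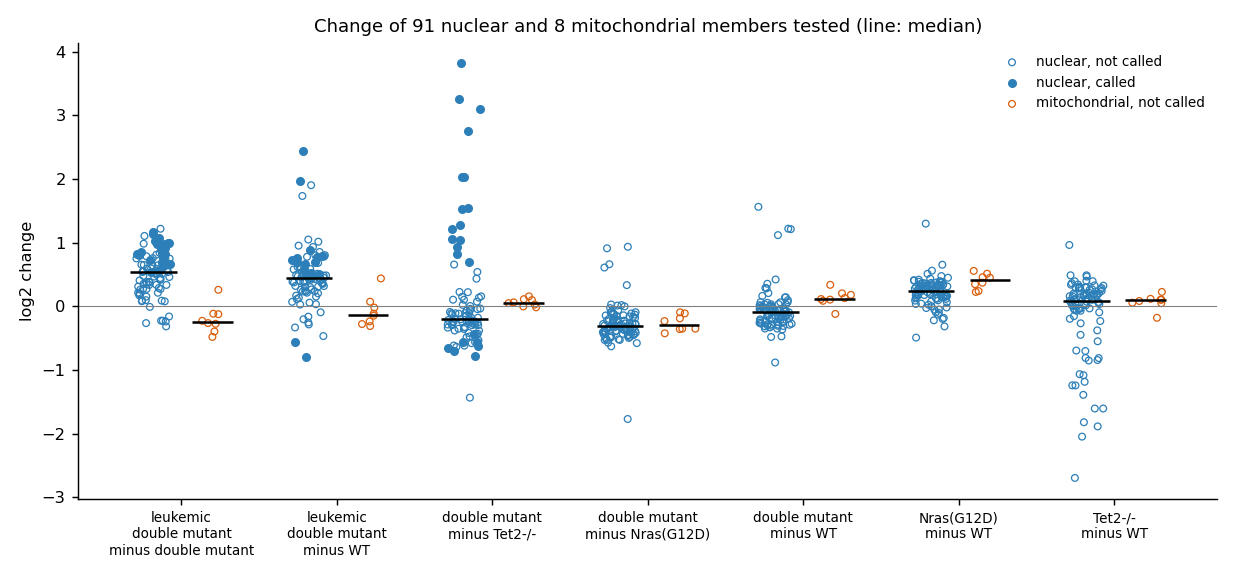
Log2 change of each of the 91 nuclear and 8 mitochondrial genes tested, for 7 comparisons; filled points passed an adjusted p of 0.05 in limma and lines are medians. Nuclear genes sit around 0.54 in leukemic double mutant minus double mutant, where the mitochondrial median is -0.25.

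In complex II, 2 of 8 genes tested were called higher over the double mutant (against 9.04% of all genes tested), median change 0.37. Among the 2 was the gene with the smallest adjusted p of the chain. That gene, Sdhd, a membrane anchor of succinate dehydrogenase (chromosome 9, 50596357 to 50603812, minus strand, GRCm38), was at 369, 518 and 444 CPM in leukemic double mutant libraries, against 212, 201 and 191 in double mutant and 264, 263 and 250.0 in WT libraries. All 3 leukemic libraries were above all other 12. The change was 1.13 ± 0.20 (log2, SE) over the double mutant (limma, adjusted p = 0.0034) and 0.76 ± 0.20 over WT (adjusted p = 0.014). Sdhb, its iron-sulfur subunit, was at 241, 324 and 318 CPM in leukemic double mutant libraries, against 176, 166 and 145 in double mutant and 209, 215 and 196 in WT libraries. It changed by 0.85 ± 0.17 over the double mutant (limma, adjusted p = 0.0048) and 0.50 ± 0.17 over WT (adjusted p = 0.041). Sdha, the subunit that binds succinate, and Sdhc, the other anchor, were not called against the double mutant, with changes of 0.38 ± 0.24 (limma, adjusted p = 0.26) and 0.35 ± 0.18 (adjusted p = 0.16). The 4 subunits of the enzyme thus had unequal values, although the differences among them were not tested.

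In complex I, 11 of 43 nuclear genes tested were called higher over the double mutant (against 9.04% of all genes tested), median change 0.53. Ndufv1, which binds NADH and its flavin, was at 269.8, 453 and 319 CPM in leukemic double mutant libraries, against 187, 166 and 168 in double mutant and 215, 210.5 and 205 in WT libraries, and the leukemic libraries were above both groups (change over the double mutant 0.97 ± 0.20, limma adjusted p = 0.0065). Its partner in the NADH-oxidising module, Ndufv2, was at 223, 298 and 261 CPM in leukemic double mutant libraries, against 158, 155 and 147 in double mutant libraries (0.75 ± 0.16, adjusted p = 0.0071). Ndufs1, the subunit with several of the iron-sulfur clusters, was at 207, 397 and 287 CPM in leukemic double mutant libraries, against 156, 141 and 135 in double mutant and 183, 179 and 175 in WT libraries (1.0 ± 0.27 over the double mutant, adjusted p = 0.019). Leukemic library 2 was the highest and library 1 the lowest for all 3 genes. Ndufb6, an accessory subunit of the membrane arm, changed by 0.97 ± 0.22 (adjusted p = 0.0084). The mitochondrial core subunits of the same complex had changes of -0.48 for mt-Nd6 to 0.26 for mt-Nd1 over the double mutant, adjusted p at least 0.32 in limma. mt-Nd1 was at 1326, 1536 and 1226 CPM in leukemic double mutant, 1219, 892 and 1344 in double mutant and 1034, 1230 and 792 in WT libraries, so the 3 groups overlapped.

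Complex III had 3 of 8 genes called higher over the double mutant (against 9.04% of all genes tested), median change 0.95. Uqcrc2, one of its 2 core proteins, was at 294, 466 and 372 CPM in leukemic double mutant libraries, against 191, 183 and 174 in double mutant and 224, 223 and 226 in WT libraries (change over the double mutant 1.02 ± 0.21, limma adjusted p = 0.0054). Double mutant libraries were the lowest and leukemic ones the highest of these groups, without overlap. mt-Cytb, the cytochrome b of this complex, was at 2039.7, 2135 and 2206 CPM in leukemic double mutant libraries, against 2469, 2052 and 3368 in double mutant and 2509, 2797 and 1864 in WT libraries (-0.28 over the double mutant, adjusted p = 0.35). In complex IV, 2 of 15 genes tested were called higher, near the 9.04% of all genes tested, median change 0.57. Cox4i1, which takes part in the regulation of the oxidase, was at 431, 539 and 505 CPM in leukemic double mutant libraries, against 340.4, 295 and 355 in double mutant and 371, 369 and 289 in WT libraries (0.57 ± 0.18 over the double mutant, limma adjusted p = 0.032). mt-Co1, the catalytic subunit of the same enzyme, was at 2829, 3668 and 3170.3 CPM in leukemic double mutant libraries and at 3688, 3002 and 5151 CPM in double mutant libraries, which overlap (-0.26, adjusted p = 0.41).

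Among the 17 genes with Atp5 symbols, counted here as complex V, 6 were called higher over the double mutant (against 9.04% of all genes tested). The median change of the 17 was 0.54. They include Atp5sl, which newer annotation names Dmac2. The c subunit, whose copies form the ring that turns in the membrane, is made as the same mature protein from Atp5g1, Atp5g2 and Atp5g3. Atp5g1 was at 117, 231 and 246 CPM in leukemic double mutant libraries, against 88.3, 81.2 and 82.0 in double mutant and 106, 110.0 and 91 in WT libraries (change over the double mutant 1.17 ± 0.26, limma adjusted p = 0.0081). Atp5g3 was at 497, 689 and 599 CPM, against 313, 290.1 and 332 in double mutant libraries (0.92 ± 0.24, adjusted p = 0.016). Atp5g2 was at 31.7, 32 and 30.4 CPM, against 31.2, 27.2 and 30.9 in double mutant libraries (0.08 ± 0.22, limma adjusted p = 0.82), so 2 of the 3 genes were called and the third had libraries that overlap. Atp5c1, the rotating gamma subunit, was at 524, 591 and 567 CPM in leukemic double mutant libraries, against 373, 349 and 347 in double mutant libraries (0.65 ± 0.14, adjusted p = 0.0081). Atp5a1 was called as well, with 0.80 ± 0.22 (limma, adjusted p = 0.020), and Atp5b was not, with 1.10 ± 0.50 (adjusted p = 0.12).

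**Figure D3:**
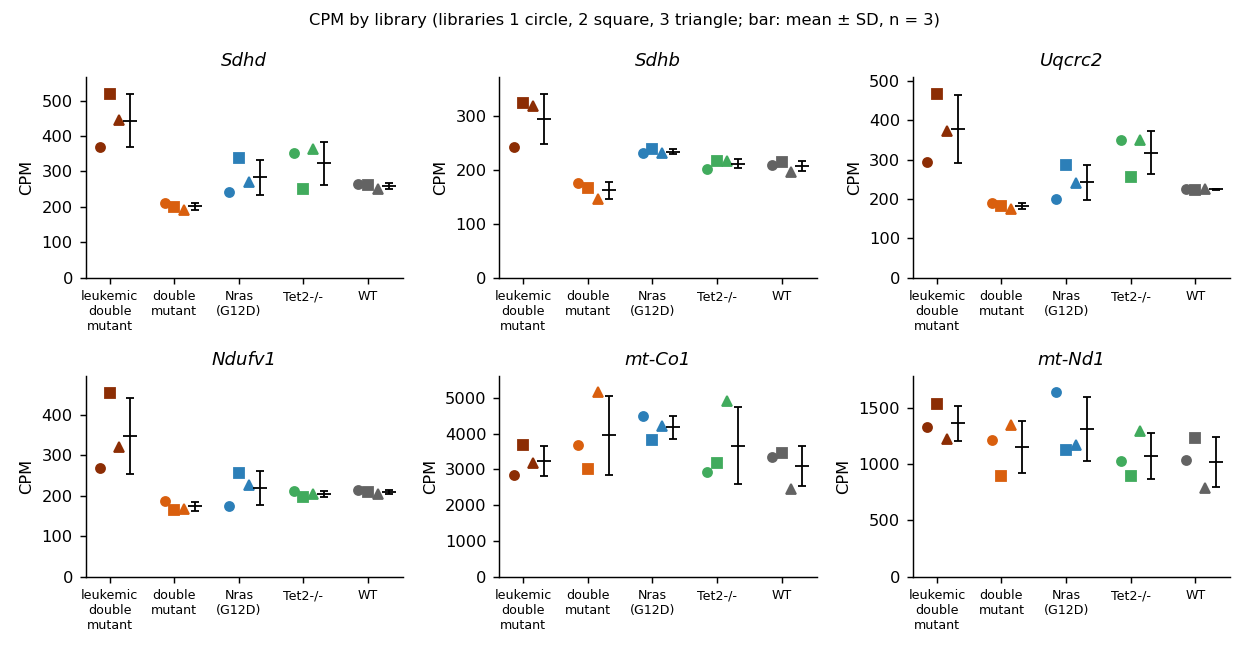
CPM in each of the 15 libraries for 4 nuclear genes with the smallest adjusted p in leukemic double mutant minus double mutant and for mt-Co1 and mt-Nd1; symbols are libraries 1 to 3 and bars the mean ± SD (n = 3). Sdhd lies at 369 to 518 CPM in leukemic double mutant libraries and at 191 to 364 CPM elsewhere, while mt-Co1 overlaps between groups.

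By role, 11 of 20 core subunits tested, 13 of 54 accessory subunits and 0 of 14 assembly or related factors were called higher over the double mutant, with medians of 0.80, 0.53 and 0.26. Of all genes tested, 9.04% were called higher. Uqcrc1, Uqcrc2, Cox4i1 and Cox5a were counted here as accessory subunits. An unadjusted p below 0.05 in limma was found for 4 of the 14 assembly factors, where 38.7% of all genes tested had one. The difference between these classes was not tested. The other called genes were Atp5o and Atp5f1 of the ATP synthase stalk, Uqcr11 and Uqcr10, Cox7b, Ndufs3 and Ndufs8 of the complex I core, and the accessory subunits Ndufa8, Ndufa9, Ndufa10, Ndufb5 and Ndufb9, with changes of 0.54 to 1.07 log2.

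Promoter sequence (RefSeq, GRCm38.p6, 250 bases before to 50 after the start) was at hand for 80 of the 96 nuclear genes, 19 of them among the 24 called. A long form of the site of NRF1, a factor known to drive respiratory genes, was searched first; it was in 7 of 80 promoters (8.75%) and in 1.32% of 17492 promoters of protein-coding genes, and in 0 of the 19 called. The answer depends on the letters: the core of that site, GCATGCGC, added after those counts were seen, was in 12 of 80 (15%) against 3.61% of all, and in 3 of the 19 called and 9 of the 58 not called. For YY1, a long form was in 6.25% of the 80 against 0.972% of all, and the core AAGATGGC, added in the same way, in 12.5% against 3.22%. Of the 19 called, 1 had the long form and 2 the core. CCGGAAGT, bound by GABPA, was in 6.25% of the 80 against 5.29% of all, and in 2 of the 19 called. Both strands were searched, and the long forms contain their cores. The E-box CACGTG, bound by factors such as Myc and also its own reverse complement, was in 7 of 80 against 7.90% of all promoters, in 4 of the 19 called (Atp5f1, Atp5g1, Atp5g3 and Ndufv1) and in 3 of the 58 not called. A match describes letters and not binding. Of those 4, the 3 with the largest changes are shown, with the E-box in capitals (Atp5g1, chr11:96075582-96075881; Atp5g3, chr2:73911277-73911576; Ndufv1, chr19:4012706-4013005; all on the minus strand).
Atp5g1: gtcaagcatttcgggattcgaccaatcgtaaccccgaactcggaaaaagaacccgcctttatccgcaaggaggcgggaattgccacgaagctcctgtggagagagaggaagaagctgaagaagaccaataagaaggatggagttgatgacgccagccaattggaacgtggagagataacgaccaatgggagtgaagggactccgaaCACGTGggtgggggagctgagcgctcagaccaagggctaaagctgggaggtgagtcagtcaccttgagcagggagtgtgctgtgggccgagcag
Atp5g3: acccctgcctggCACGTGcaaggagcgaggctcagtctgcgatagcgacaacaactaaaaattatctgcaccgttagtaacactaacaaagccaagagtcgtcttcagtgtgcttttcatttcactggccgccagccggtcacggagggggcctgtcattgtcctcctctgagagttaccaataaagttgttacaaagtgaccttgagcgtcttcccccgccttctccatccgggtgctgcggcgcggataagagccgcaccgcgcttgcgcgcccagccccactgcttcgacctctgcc
Ndufv1: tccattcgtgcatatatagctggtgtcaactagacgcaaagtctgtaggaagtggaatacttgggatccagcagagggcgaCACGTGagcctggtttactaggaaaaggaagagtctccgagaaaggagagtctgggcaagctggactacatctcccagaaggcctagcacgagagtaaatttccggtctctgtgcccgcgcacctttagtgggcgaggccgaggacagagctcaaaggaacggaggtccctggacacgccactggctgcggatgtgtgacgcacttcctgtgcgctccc

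Set against WT, the leukemic double mutant had 14 nuclear genes higher and 2 lower of 91, while 10.8% of all genes tested were called higher and 13.9% lower. The median change of the nuclear genes was 0.45, with 82 above 0, but 0.18 with scaling by total counts and 0.19 with quantile normalization; relative to all genes it was 0.45, or 0.23 with quantile normalization. In this comparison 0 of 8 mitochondrial genes were called, 0 also at an unadjusted p below 0.05 in limma (39.2% of all genes) and 0 by voom. The number of calls depended on single libraries: it was 0 without leukemic library 2 and 0 without WT library 1, 2 without leukemic library 3, 6 without WT library 2 and 1 without WT library 3, against 41 without leukemic library 1. With scaling by total counts 3 genes were called higher and 2 lower, and with quantile normalization 3 higher and 1 lower. The largest change was that of Uqcrfs1, the Rieske iron-sulfur protein of complex III, at 224, 345 and 297 CPM in leukemic double mutant libraries, against 29.8, 88.1 and 55.3 CPM in WT libraries (2.43 ± 0.62, limma adjusted p = 0.014). Ndufaf6, a complex I assembly factor, was at 24.9, 28.1 and 37.4 CPM in leukemic double mutant libraries, against 4.23, 14.1 and 7.32 in WT libraries (1.97 ± 0.57, adjusted p = 0.025). The other 12 genes were Sdhd, Sdhb, Uqcrc2, Uqcr11, Ndufv1, Ndufv2, Ndufb6, Cox4i1, Atp5g1, Atp5g3, Atp5j and Atp5o, with changes of 0.50 to 0.88.

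The 2 nuclear genes that fell in leukemic double mutant against WT were small subunits. Ndufa4, first assigned to complex I and now known as a part of complex IV, was at 235, 231 and 215 CPM in leukemic double mutant libraries, against 368, 351 and 289 in WT libraries (-0.56 ± 0.18, limma adjusted p = 0.038). In double mutant libraries it was at 279, 244 and 274 CPM, between both groups and below WT in every library. Ndufb2, an accessory subunit of complex I, was at 8.99, 10.5 and 11.3 CPM in leukemic double mutant libraries, against 19.1, 15.1 and 19.7 in WT libraries (-0.80 ± 0.26, limma adjusted p = 0.039).

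In the double mutant against Tet2-/-, 15 of 91 nuclear genes were called higher and 7 lower. Neither was a larger share than among all genes tested, of which 20.1% were called higher and 8.57% lower. The called rises were not shared by most of the family: the median change was -0.20, with 63 of 91 below 0, and the mean was 0.10. No mitochondrial gene was called, 0 had an unadjusted p below 0.05 in limma (42.9% of all genes), and 0 were called by voom; their median change was 0.05. With quantile normalization, which moved the median of all genes to -0.24, 14 nuclear genes were called higher and 14 lower. Of all genes, 16.7% were then called higher and 19.7% lower. On the deposited values, the count of calls fell to 5 without Tet2-/- library 1, to 5 without Tet2-/- library 3, to 7 without double mutant library 2, to 6 without double mutant library 3 and to 14 without double mutant library 1, and was 31 without Tet2-/- library 2.

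The rises were led by Cox5a, a nuclear subunit of complex IV, at 37.9, 64.4 and 70.4 CPM in double mutant libraries, against 1.70, 14.5 and 2.46 CPM in Tet2-/- libraries (3.81 ± 0.73, limma adjusted p = 0.0047). In the other groups it was at 82.1, 103 and 104 CPM in leukemic double mutant, 45.2, 76.9 and 14 in Nras(G12D) and 13.5, 47.9 and 26.0 in WT libraries. Tet2-/- libraries 1 and 3 were the lowest of all 15. Uqcrfs1 was at 74.8, 154 and 158 CPM in double mutant libraries, against 7.90, 32 and 11.3 in Tet2-/- libraries (3.11 ± 0.62, adjusted p = 0.0051). Ndufaf6 was at 9.75, 22.6 and 24.6 CPM in double mutant libraries, against 1.19, 3.96 and 1.28 in Tet2-/- libraries (3.26 ± 0.57, adjusted p = 0.0047). In each of these 3 genes the Tet2-/- libraries 1 and 3 were close together and library 2 was higher. Ndufab1, the acyl carrier protein that is also a complex I subunit, was at 43.3, 59.6 and 58.4 CPM in double mutant libraries, against 7.90, 24.2 and 11.6 in Tet2-/- libraries (2.03 ± 0.45, limma adjusted p = 0.0070). Atp5d, the delta subunit of ATP synthase, was at 193, 182 and 185 CPM in double mutant libraries, against 27.5, 118 and 29.4 in Tet2-/- libraries (2.03 ± 0.52, adjusted p = 0.013). Sdhaf1, which helps insert iron-sulfur clusters into complex II, Cox8a and Uqcrq completed the 8 rises of smallest adjusted p, with changes of 2.75, 1.53 and 1.05. Atp5b, of the same enzyme as Atp5d, was at 1524, 1533 and 1344 CPM in double mutant libraries, against 326, 1262 and 304 in Tet2-/- libraries (1.55 ± 0.50, limma adjusted p = 0.034). The other 6 rises were Ndufa6, Ndufa10, Uqcrc1, Cox5b, Cox6a1 and Atp5g3.

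**Figure D4:**
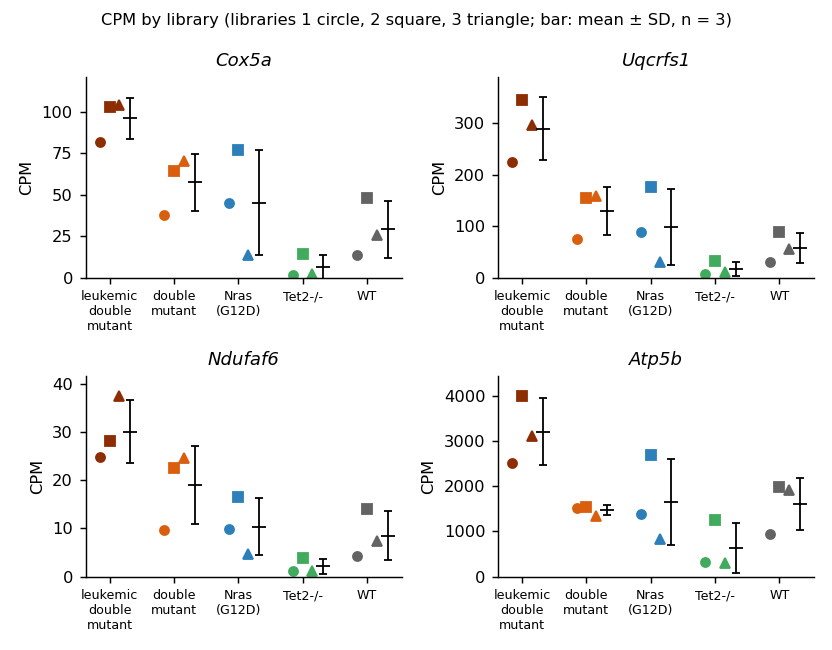
CPM in each of the 15 libraries for Cox5a, Uqcrfs1, Ndufaf6 and Atp5b; symbols are libraries 1 to 3 and bars the mean ± SD (n = 3). In all 4 panels Tet2-/- libraries 1 and 3 lie at the bottom, at 1.70 and 2.46 CPM for Cox5a, with Tet2-/- library 2 above them.

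The 7 genes lower in the double mutant than in Tet2-/- were Uqcrc2, Sdhc, Sdhd, Ndufa9, Atp5c1, Ndufs8 and Atp5o. Uqcrc2 was at 191, 183 and 174 CPM in double mutant libraries, against 349, 255 and 350.0 in Tet2-/- libraries (-0.79 ± 0.21, limma adjusted p = 0.015). Sdhd was at 212, 201 and 191 CPM in double mutant libraries, against 353, 251 and 364 in Tet2-/- libraries (-0.66 ± 0.20, adjusted p = 0.024). Sdhc was at 149.7, 133 and 126 CPM in double mutant libraries, against 227, 171 and 239 in Tet2-/- libraries (-0.63 ± 0.18, adjusted p = 0.019). For these 3 genes the Tet2-/- libraries 1 and 3 were the highest of their group, the reverse of Cox5a. Atp5c1, Ndufs8 and Atp5o missed the threshold with the replicate number as a block (limma, adjusted p = 0.058, 0.051 and 0.063), where 15 genes were called higher and 4 lower. Of the 7, 6 were also among the genes called higher in the leukemic double mutant over the double mutant (all but Sdhc), and both comparisons use the same double mutant libraries. That those libraries are the low ones in both is seen in Sdhd, where they also lay below the WT libraries.

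The genes called higher and lower over Tet2-/- differed in base composition. The G and C content of the richest 100 bases of the transcript (GENCODE M21) had a median of 76% among the 15 genes higher in the double mutant, 64% among the 7 lower and 67% among the 69 not called, against 71% over all genes tested. Across the 91 nuclear genes, Spearman's rho between this content and the change was 0.51 for double mutant minus Tet2-/- and 0.20 for leukemic double mutant minus double mutant; across all genes it was 0.56 and -0.03. For leukemic double mutant minus WT it was 0.34 across the nuclear genes and 0.22 across all, and for Tet2-/- minus WT -0.60 and -0.49. These are descriptions across genes that share libraries and are not independent replicates. The ranges of the called genes overlapped, at 67 to 81% for the 15 higher and 60 to 72% for the 7 lower. As examples, the richest 100 coding bases are shown for 2 genes that were higher (Cox5a and Uqcrfs1) and 2 lower (Uqcrc2 and Sdhd). Windows were taken every 10 bases, and a coding window can differ from that of the whole transcript. Capitals mark runs of at least 7 bases that are all G or C.
Cox5a: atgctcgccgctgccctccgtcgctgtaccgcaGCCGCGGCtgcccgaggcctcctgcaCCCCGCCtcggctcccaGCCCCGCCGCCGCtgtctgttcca
Uqcrfs1: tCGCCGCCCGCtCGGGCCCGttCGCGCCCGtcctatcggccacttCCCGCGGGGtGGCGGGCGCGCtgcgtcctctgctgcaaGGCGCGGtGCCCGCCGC
Uqcrc2: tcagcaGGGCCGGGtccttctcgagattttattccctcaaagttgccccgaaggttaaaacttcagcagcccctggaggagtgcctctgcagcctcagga
Sdhd: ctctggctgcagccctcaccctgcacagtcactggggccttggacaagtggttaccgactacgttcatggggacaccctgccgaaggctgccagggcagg
These windows hold 76, 80, 56 and 64% G and C in the order shown, at coding bases 1 to 100 of Cox5a, 11 to 110 of Uqcrfs1, 11 to 110 of Uqcrc2 and 281 to 380 of Sdhd.

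Within the Tet2-/- group the libraries stood apart on this property. For each library, the median deviation of the 20 nuclear genes with a window of at least 75% G and C, minus that of the 71 other genes, was -1.30, -0.00 and -1.42 (log2) in Tet2-/- libraries 1, 2 and 3. It was 0.37, 0.49 and 0.32 in leukemic double mutant, 0.18, 0.30 and 0.17 in double mutant, 0.04, 0.43 and -0.19 in Nras(G12D) and -0.10, 0.21 and 0.08 in WT libraries. Tet2-/- libraries 1 and 3 were thus more than 1 log2 unit below every other library, Tet2-/- library 2 included. With a correction for this content added after seeing the data, 5 nuclear genes were called higher and 8 lower in double mutant minus Tet2-/-, 6 of them shared with the uncorrected calls, where 8.34% of all genes were called higher and 9.07% lower. In leukemic double mutant minus double mutant 40 were called higher, 23 of them shared, where 16.5% of all genes were called higher.

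**Figure D5:**
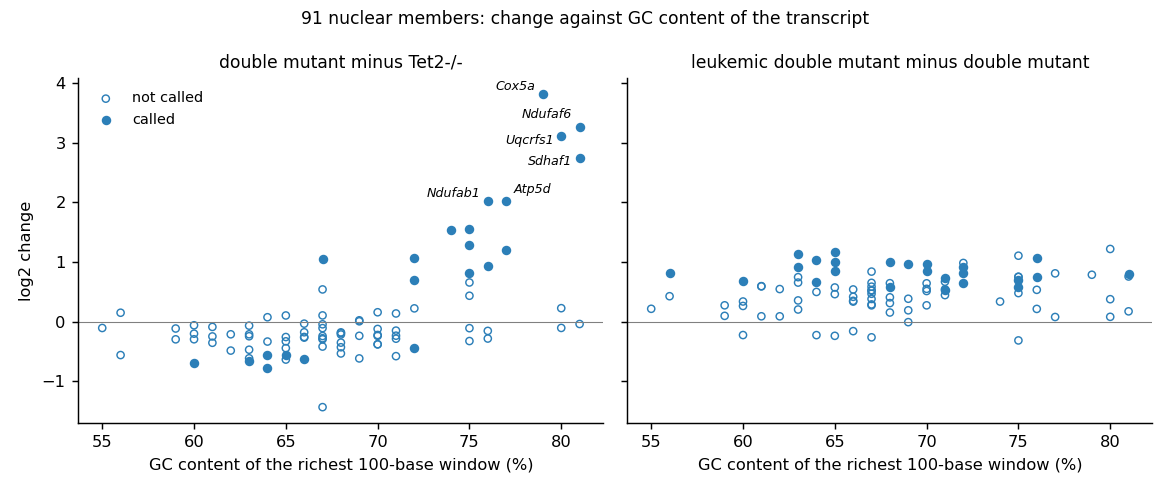
Log2 change of the 91 nuclear genes against the G and C content (%) of the richest 100 bases of the transcript; filled points passed an adjusted p of 0.05 in limma. In double mutant minus Tet2-/- the called rises have a median of 76% and the called falls 64%, and in leukemic double mutant minus double mutant the called genes have a median of 69.5%.

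In limma, neither single mutant nor the double mutant had a called gene of the chain against WT. In Nras(G12D), 0 of 91 nuclear genes were called in limma, 1 had an unadjusted p below 0.05 and 0 were called by voom, while 0.0% of all genes tested were called and 4.14% had such an unadjusted p. The median change was 0.24, with 78 above 0, and all 8 mitochondrial genes were above 0 with a median of 0.41, of which 0 had an unadjusted p below 0.05. mt-Co1 was at 4481, 3822 and 4206 CPM in Nras(G12D) libraries, against 3355, 3456 and 2448 in WT libraries, the only mitochondrial gene with all 3 libraries above WT, as for 5.52% of all genes (0.45 ± 0.23, limma adjusted p = 0.98). mt-Nd4 was at 1159, 454 and 571 CPM in Nras(G12D) libraries, against 508, 555 and 368 in WT libraries (0.51 ± 0.30, adjusted p = 0.98), with library 1 far above the rest. In that library the mitochondrial ribosomal RNAs made up 1.71% of counts, against 0.360 to 0.828% in the other 14. Nras(G12D) libraries also differed in cell markers. The 8 neutrophil markers summed to 102 to 3895 CPM in Nras(G12D), 125 to 232 in WT and 135 to 409 in double mutant libraries. The 6 dendritic cell markers summed to 523 to 3178 CPM in Nras(G12D) libraries. The part of these differences in the Nras(G12D) comparisons was not tested.

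In Tet2-/- against WT, 0 of 91 nuclear genes were called in limma, 19 had an unadjusted p below 0.05 and 41 were called by voom. Over all genes 0.23% were called in limma, 23.7% had such an unadjusted p and 49.8% were called by voom. With the replicate number as a block, 8 nuclear genes were called, all lower, where 4.45% of all genes were called lower. The deviations of same-numbered Tet2-/- and WT libraries correlated at 0.242, 0.237 and -0.124, which does not settle whether the numbers pair these libraries. Changes ran from -2.70 for Cox5a to 0.96, with a median of 0.09, and Cox5a itself missed the threshold (limma, adjusted p = 0.11). No mitochondrial gene was called, 0 had an unadjusted p below 0.05 and 0 were called by voom; the median was 0.09, but -0.05 with quantile normalization. In the double mutant against WT, 0 of 91 nuclear genes were called in limma, 1 had an unadjusted p below 0.05 and 13 were called by voom. Over all genes 0.682% were called in limma, 15.2% had such an unadjusted p and 26.3% were called by voom. Its median was -0.09 with 65 genes below 0, and that of the mitochondrial genes 0.12, with 0 called, 0 at an unadjusted p below 0.05 and 0 by voom.

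Against Nras(G12D), the double mutant was lower in most of the family without any call. The spread of neutrophil and dendritic cell markers among Nras(G12D) libraries given above applies here too. Of 91 nuclear genes 83 were below 0, with a median of -0.32 where that of all genes was 0.09; 0 were called in limma, 15 had an unadjusted p below 0.05 and 0 were called by voom, while 0.079% of all genes were called and 7.41% had such an unadjusted p. For 38 nuclear genes all 3 double mutant libraries lay below all 3 Nras(G12D) libraries, against 6.87% of all genes tested. Sdhb was at 176, 166 and 145 CPM in double mutant libraries, against 230.2, 239 and 231 in Nras(G12D) libraries (-0.53 ± 0.17, limma adjusted p = 0.52). The 8 mitochondrial genes were all below 0, median -0.29, with 0 called, 0 at an unadjusted p below 0.05 and 0 by voom. The interaction (how far the double mutant departs from the sum of both single mutants on the log2 scale) had 0 of 91 nuclear genes called in limma, 23 at an unadjusted p below 0.05 and 56 by voom. Over all genes 0.0% were called in limma, 21% had such an unadjusted p and 42.5% were called by voom. Its nuclear median was -0.44. The mitochondrial median was -0.34, with 0 called, 0 at an unadjusted p below 0.05 and 0 by voom, and relative to the median of all genes it was -0.43, or 0.06 with quantile normalization.

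Of 8 isoforms known from other tissues, 5 were near silent. Cox7a1 of muscle had 4 to 21 counts per library, Cox8b 0 to 2, Cox8c and Cox7b2 of testis 0 to 3 and 0 to 1, and Ndufa4l2, known as a target of hypoxia signalling, 0 to 5 in 14 libraries and 90 in leukemic library 2. None of these 5 passed the filter. Cox6b2, the testis form of a complex IV subunit, was at 24.1, 85.6 and 36.7 CPM in leukemic double mutant libraries, against 24.4, 24.3 and 21.7 in WT libraries, and was not called (0.85 ± 0.40, limma adjusted p = 0.13). Cox6a2, the heart and muscle form, was at 9.93, 8.96 and 11.6 CPM in Nras(G12D) libraries, against 4.69, 4.54 and 3.22 in WT libraries (1.30 ± 0.56, adjusted p = 0.98), and Cox4i2 of lung stayed between 0.332 and 1.58 CPM.

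Other genes of the pathway were taken from lists chosen with earlier results known. Of 18 citric acid cycle enzymes, 10 were higher and 0 lower in leukemic double mutant over double mutant, median 0.86, where 9.04% of all genes were called higher. Over WT 5 were higher, median 0.52, where 10.8% of all genes were. Citrate synthase (Cs), the entry step, was at 421, 993 and 704 CPM in leukemic double mutant libraries, against 263, 247 and 211 in double mutant and 304, 316 and 334 in WT libraries (1.47 ± 0.28 over the double mutant, limma adjusted p = 0.0043). Idh3a, of the NAD-linked isocitrate dehydrogenase, was at 316, 561 and 495 CPM in leukemic double mutant libraries, against 172, 182 and 153 in double mutant libraries (1.397 ± 0.26, adjusted p = 0.0040). Among 47 assembly factors and cofactors outside the symbol rule, 9 were higher and 0 lower over the double mutant, median 0.38, among them Cox10 of heme A synthesis (0.81 ± 0.20, limma adjusted p = 0.012). Among 33 genes that express or copy mitochondrial DNA, 5 were higher and 0 lower, median 0.37, and Tfam, which packs that DNA, was not called (0.32 ± 0.24, adjusted p = 0.33). None of 13 regulators of mitochondrial biogenesis was called over the double mutant in limma, and their median was -0.35. Of the 13, 3 had an unadjusted p below 0.05 in limma, where 38.7% of all genes tested had one. Ppargc1a, the best known of these regulators, was at 1.58, 0.132 and 0.312 CPM in leukemic double mutant libraries, against 3.66, 3.68 and 4.76 in WT libraries (-3.24 ± 0.78, limma adjusted p = 0.011). In double mutant libraries without leukemia it was at 0.830, 0.241 and 1.65 CPM, also below every WT library. It was called lower there than in Tet2-/- (-2.99 ± 0.78, limma adjusted p = 0.014). These are low values.

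For double mutant minus Tet2-/-, each list had genes called in both directions, where 20.1% of all genes were called higher and 8.57% lower. Citric acid cycle enzymes had 2 higher and 6 lower, assembly factors 11 higher and 7 lower, genes for mitochondrial DNA 9 higher and 4 lower and regulators 2 higher and 3 lower. Iscu, the scaffold on which iron-sulfur clusters are built, was at 16.1, 58.4 and 65.2 CPM in double mutant libraries, against 1.70, 5.68 and 2.65 in Tet2-/- libraries (3.73 ± 0.67, limma adjusted p = 0.0047). Cyc1, the cytochrome c1 of complex III that the symbol rule misses, changed by 2.95 ± 0.61 (adjusted p = 0.0056).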

How the data were processed

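Per the labels' protocols, RNA of LSK cells went into stranded mRNA libraries; bcl2fastq, STAR 2.4.0f1, edgeR 3.14.0, limma 3.28.21, mm10 and NCBIM37 are named in the submitters' processing notes, without roles. No source used here gives the counting tool or its strand setting. The deposited log2 values are CPM with 0.5 added to the count and 1 to a library size scaled by the authors, read from the values, since 100% of counts came back whole (tolerance 1e-06). The 15 columns were matched to samples by description; the column N2-3 was taken as Nras(G12D) library 2, the one left once the others were matched, and BMT1 as leukemic library 1, whose description has no number.

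Fits to these values used limma 3.58.1 (R 4.3.3; intensity trend; 5 group means; genes with at least 1 CPM in 3 libraries) and Benjamini-Hochberg adjustment over all 13927 genes. Transcript windows and nuclear copies came from GENCODE M21 (BLAST 2.17.0). Members, lists and tests were chosen with earlier results of these data known. Genes named in full are those of smallest adjusted p per comparison (up to 8 rises and 8 falls), core subunits fixed by name, all mitochondrial genes, genes that never passed the filter, tissue-restricted isoforms and up to 4 genes of smallest adjusted p per pathway list; other names were added after their values were seen, and some items the rule names are not reported here. The fit was also run on simulated counts with no differences among libraries beyond their size. That run does not bear on the dependence on single libraries. Same-numbered double mutant and Tet2-/- libraries correlated above 0.1 in all 3 pairs (from the data, not the labels), so the block is given for that comparison. For Tet2-/- minus WT, where the pair numbered 3 correlated at -0.124, it is given as an alternative only. Correlations this weak do not settle whether the numbers pair libraries. The NRF1 and YY1 promoter motifs were searched in both forms: long forms first, then shorter cores whose letters are printed, added once the first counts were known so that the letters searched could be given; results of both are reported.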

Additional observations from a re-analysis of the deposited data

How the results depend on the processing

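Directions held for all 62 called nuclear results under every alternative run; how many passed the threshold did not. Leukemic double mutant minus WT (16 calls) gave 4 with quantile normalization, 5 with scaling by total counts, 5 by nuclear totals, 4 without the filter on low genes, 72 with voom and 45 with the correction for the GC-richest window, which was added after seeing the data; leaving out 1 library gave 0 to 41. Leukemic double mutant minus double mutant (24) gave 13, 12, 11, 13, 64 and 40 in the same order, 9 with only the groups compared and 8 to 43 with 1 library left out. Double mutant minus Tet2-/- (22) gave 10 without the filter, 49 with voom, 13 with the window correction, 30 with a GC and length correction (8 higher and 22 lower) and 5 to 31 with 1 library left out. Comparisons with 0 calls gave, with voom, 13 for double mutant minus WT, 41 for Tet2-/- minus WT and 56 for the interaction. Over all genes voom called 60.5%, 56.7%, 63.2%, 26.3%, 49.8% and 42.5% in these 6 comparisons, in the order given. With quantile normalization, total counts and nuclear totals, 22.9%, 27.0% and 27.1% of all genes were called in leukemic double mutant minus WT. In leukemic double mutant minus double mutant these shares were 17.9%, 26.6% and 26.7%. Without the filter, 9.19% were called in leukemic double mutant minus WT and 8.56% in double mutant minus Tet2-/-. Shares of all genes with 1 library left out are not given here. Leaving out 1 library gave 0 to 19 for Tet2-/- minus WT and 0 to 21 for the interaction. Mitochondrial genes, 0 throughout otherwise, gave 2 lower with quantile normalization and 1 higher with a GC and length correction in leukemic double mutant minus double mutant, and 1 higher with each GC correction against WT. With Y-linked genes as a covariate 60 of the 62 were called and Atp5g3 and Cox5b in double mutant minus Tet2-/- were not. The cause of these shifts was not tested.

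The deviations of 30 same-numbered pairs correlated between -0.35 and 0.29, 12 of them over 0.1. Between double mutant and Tet2-/- all 3 pairs were over 0.1 (0.106 to 0.137). In the other comparisons not all pairs were over 0.1. Correlations this weak do not settle whether the numbers pair libraries. With the replicate number as a block, Tet2-/- minus WT had 8 nuclear calls, all lower (5.12% of all genes were called), double mutant minus Tet2-/- had 19, and the other counts stayed within 1.5 times of those reported. Depth limits only the genes with few counts, such as mt-Nd3; 3 libraries per group and unrecorded handling of multiply matching reads limit the rest.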
